A study of Homo sapiens with 10 samples.

Results

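A set of 10 genes that encode heat shock proteins and their partner cochaperones was followed in 2 human leukaemia cell lines exposed to the agent named JOA. The genes were taken by symbol from a fixed list (HSP90AA1, HSP90AB1, HSPA8, HSPA1A, HSPH1, HSPD1, HSPE1, DNAJB1, BAG3 and STIP1). The rule that lists them uses no measured value, but the list was drawn up with earlier results of these data known. The set had 8 members among the 28946 genes or unnamed records of the Kasumi-1 table, and 9 members among the 21944 genes of the NB4 table. HSPA1A in both lines and HSPD1 in Kasumi-1 are not analysed here.

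Kasumi-1 is an acute myeloid leukaemia line that carries the RUNX1-RUNX1T1 fusion, and NB4 is an acute promyelocytic leukaemia line that carries the PML-RARA fusion. The Kasumi-1 groups were 3 libraries of cells incubated with control and 3 of cells given 1 µM JOA, and the NB4 groups were 2 libraries of each, all after 48 hours. The labels give no genotype beyond the line, say nothing of what the control contained, and do not spell out the agent's name. The treated NB4 libraries carry I13 in 1 label and JOA in the title and agent, and they are called JOA here. Nothing states that the replicates were separate cultures, so the spread and every p-value below describe these libraries and may be technical in origin.

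Heat shock proteins are molecular chaperones, which bind unfolded or partly folded proteins and release them in cycles driven by ATP. HSP70 proteins take a client from a J-domain cochaperone, nucleotide exchange factors such as BAG proteins and HSP110 open the cycle for release, and STIP1 bridges HSP70 to HSP90, which matures kinases and receptors. When unfolded proteins build up, the transcription factor HSF1 is freed and binds heat shock elements, repeats of the short unit nGAAn in alternating orientation, and many genes of this set are among its known targets. The label of the set is cytosolic, but HSPD1 and HSPE1 encode HSP60 and HSP10, which form a chaperonin in the mitochondrial matrix.

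The deposited values were FPKM in Kasumi-1 and TPM in NB4, both levels per transcript length, so genes can be ranked within a table but levels cannot be set against each other between the lines. All genes of a table were tested with limma on log2(value + 1), and a gene is called changed where its p, adjusted after Benjamini and Hochberg, is under 0.05. A log2 difference on this scale is JOA minus control and understates the change of a gene at low level. In Kasumi-1, libraries with the same replicate number deviated together, so a second fit, with that number as a blocking term (the paired fit), accompanies the unpaired fit.

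The relative depth of the Kasumi-1 libraries lay between 91.4% and 100% of control 1, and the depth of the NB4 libraries is unknown because TPM keeps none. Markers of the Kasumi-1 line matched its label. RUNX1T1, part of the Kasumi-1 fusion, stood at 17.1 to 20.2 FPKM in Kasumi-1 and at 0 to 0.0159 TPM in NB4. KIT stood at 164 to 322 FPKM in Kasumi-1 and 0.743 to 1.05 TPM in NB4. The NB4 fusion partners PML and RARA stood at 48.2 to 57.8 and 45.3 to 54.5 TPM in NB4, levels that do not show the fusion itself. Myeloid markers were present in both lines, with MPO at 5289 to 6096 FPKM in Kasumi-1. In NB4, MPO stood at 7983 and 7693 TPM in the controls and 5886 and 4679 TPM with JOA, and CD33 at 58.4 and 49.8 against 72.2 and 75.4 TPM. Erythroid markers summed to at most 0.0684 FPKM in Kasumi-1 and 0.583 TPM in NB4. Of 3 T cell markers in NB4 only CD3D reached 1 TPM, at 26.1 and 27.4 in the controls and 31.8 and 47.3 with JOA, while CD3E and CD2 stayed at or near 0. Of 4 epithelial or fibroblast markers only EPCAM reached 1 TPM in NB4, at 10.2 to 16.0, and EPCAM stood at 33.1 to 44.4 FPKM in Kasumi-1, where the other 3 are not analysed here.

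Heat shock elements, the DNA that HSF1 binds, were looked for beside the starts of the genes. The strict form with 3 units, GAANNTTCNNGAA or its reverse complement TTCNNGAANNTTC, was searched on both strands in RefSeq windows running from 250 bases before to 50 bases after each annotated start (GRCh38.p14). All 10 genes matched the table, with 17 windows, of which 4 windows in 4 genes (23.5%) held the element. Among 88 windows of the other chaperone genes described below 4 (4.55%) held it, and among all 35116 windows 172 (0.490%) did. The stretches that hold it follow, read along the gene's own strand, with the element in capitals and only a few flanking bases, to show where the matches lie and what surrounds them; their cores are alike by the search itself.

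HSP90AA1: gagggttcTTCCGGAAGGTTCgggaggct
HSP90AB1, first: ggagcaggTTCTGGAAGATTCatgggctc
HSP90AB1, second: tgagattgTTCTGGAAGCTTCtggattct
HSPA8, far: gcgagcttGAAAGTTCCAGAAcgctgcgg
HSPA8, near: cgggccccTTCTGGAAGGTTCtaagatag
HSPD1: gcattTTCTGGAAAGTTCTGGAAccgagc

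The HSP90AA1 stretch lies on the minus strand at chr14:102087112-102087140, in the first exon of the transcript HSP90AA1-201 as GENCODE draws it. The HSP90AB1 stretches lie on the plus strand at chr6:44247770-44247798 and chr6:44247823-44247851, in an intron of HSP90AB1-203, the transcript that held 98.3% to 98.6% of this gene's TPM in the NB4 libraries. The HSPA8 stretches lie on the minus strand at chr11:123062346-123062374 and chr11:123062171-123062199, the far one 11 bases before the start of the coding transcript HSPA8-224 and the near one in an exon of it. The HSPD1 stretch, on the minus strand at chr2:197500062-197500090, holds 2 overlapping elements 15 bases before the start of HSPD1-202. It also falls in an exon of HSPE1-201, which is read the opposite way, so 1 stretch lies beside the starts of both chaperonin genes. The windows of BAG3, STIP1, DNAJB1, HSPH1, HSPE1 and HSPA1A held no strict element, which says only that these letters are not in those windows.

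In Kasumi-1 the constitutive HSP90 gene HSP90AB1 and the adaptor STIP1 were slightly lower with JOA and the cochaperone BAG3 was slightly higher. These 3 genes were called in the paired fit alone. The unpaired fit called 0 of the 8 genes, as it called 0 (0%) of all 12101 genes tested. The paired fit called 3 of the 8, with HSP90AB1 (log2 -0.29) and STIP1 (-0.20) lower and BAG3 (0.25) higher. That fit called 985 of all genes (8.14%), with 736 higher (6.08%) and 249 lower (2.06%). The median log2 difference of the 8 genes was -0.16, with 7 of 8 negative (6 of 8 under quantile scaling, where HSP90AA1 turned to 0.02), and that of all genes tested was 0.05, with 38.1% negative.

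**Figure D1:**
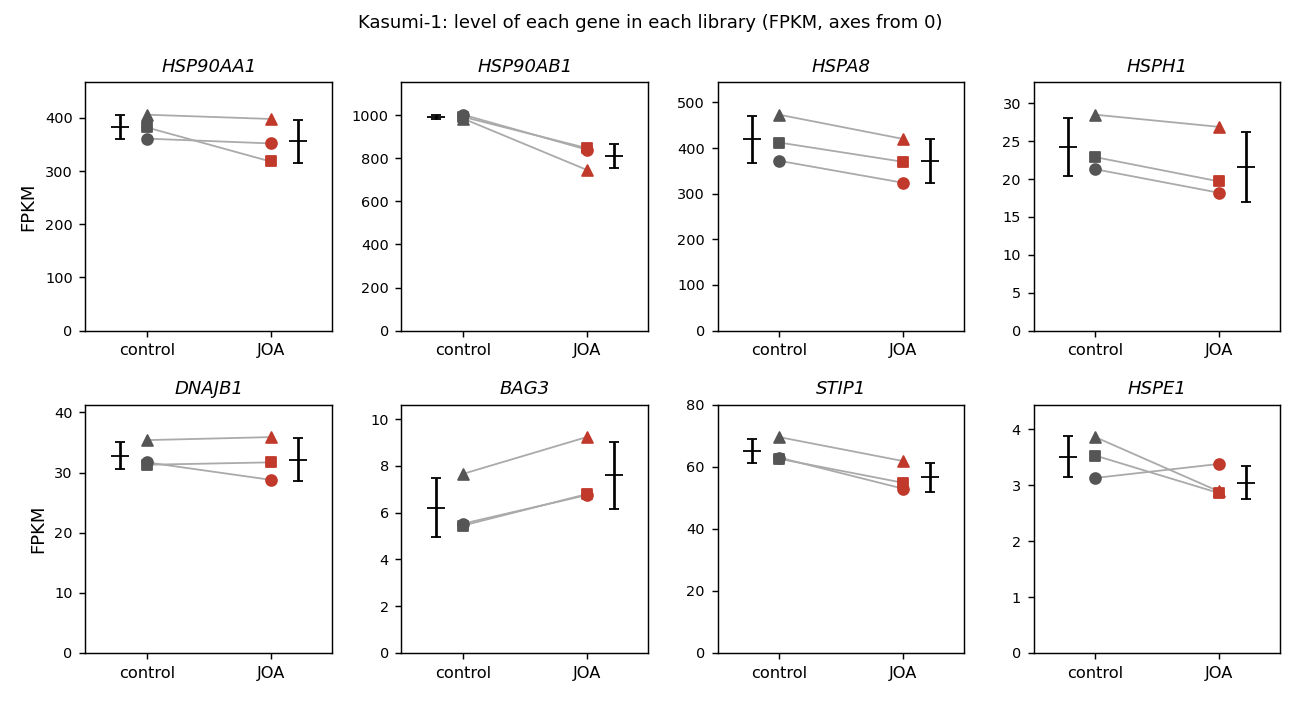
Levels in FPKM (vertical axes, each from 0) of the 8 genes found in Kasumi-1, in control (grey) and JOA (red) libraries. Circles, squares and triangles are replicate numbers 1, 2 and 3, grey lines join libraries with the same number, and black marks give the mean with 1 SD (n = 3). All 3 lines slope down for HSP90AA1, HSP90AB1, HSPA8, HSPH1 and STIP1 and all 3 slope up for BAG3.

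HSP90AB1 encodes the constitutive cytosolic HSP90 (HSP90-beta) and was the most abundant of the set in Kasumi-1. Its level was 1003, 993 and 985 FPKM in the controls and 841, 848 and 747 FPKM with JOA. All 3 JOA libraries lay below all 3 controls, which was so for 859 of all genes tested (7.10%). The mean went from 994 ± 8.91 to 812 ± 56.5 FPKM (SD, n = 3), a log2 difference of -0.29 (SE 0.08, limma adjusted p = 0.173 unpaired and 0.0396 paired). In every pair the JOA library was lower, by changes of -16.2%, -14.6% and -24.2%.

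HSP90AA1, which encodes the stress-inducible HSP90-alpha, overlapped between the groups, at 361, 382 and 406 FPKM in the controls and 352, 318 and 398 FPKM with JOA (log2 -0.11, SE 0.10, limma adjusted p = 0.609 unpaired and 0.271 paired). JOA was lower in all 3 pairs here too, but only the pair numbered 2 moved by more than a few percent (-16.7%). The ratio of HSP90AB1 to HSP90AA1 was 2.78, 2.60 and 2.42 in the controls and 2.39, 2.66 and 1.88 with JOA. These ratios overlapped (exact permutation test, two-sided p = 0.400, where 3 against 3 allows no p below 0.1).

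HSPA8 encodes HSC70, the HSP70 that cells make without stress, and ranked next after HSP90AB1 in Kasumi-1. It stood at 372, 412 and 473 FPKM in the controls and 324, 369.9 and 420.1 FPKM with JOA, so the groups overlapped while each pair dropped by a similar amount, -12.8%, -10.3% and -11.1%. The log2 difference was -0.17 (SE 0.12, limma adjusted p = 0.518), and the paired fit left it just short of the threshold (adjusted p = 0.0519). HSPH1, the HSP110 that acts as an exchange factor for HSP70, had 21.3, 22.9 and 28.5 FPKM in the controls and 18.2, 19.7 and 26.9 FPKM with JOA (limma adjusted p = 0.643 unpaired and 0.0753 paired).

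Among the cochaperones, STIP1, the HSP70 to HSP90 adaptor, stood at 63.0, 62.6 and 69.6 FPKM in the controls and 53.0, 54.9 and 61.9 FPKM with JOA. The groups did not overlap and the log2 difference was -0.20 (SE 0.08, limma adjusted p = 0.263 unpaired and 0.0406 paired), with pair changes of -15.9%, -12.2% and -11.1%. DNAJB1, the J-domain partner of inducible HSP70, did not move in 1 direction, with 31.7, 31.3 and 35.4 FPKM in the controls and 28.8, 31.7 and 35.9 FPKM with JOA (limma adjusted p = 0.895 unpaired and 0.678 paired).

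BAG3, an exchange factor that ties HSP70 to selective autophagy, was the 1 member above its controls in every pair. It stood at 5.53, 5.45 and 7.66 FPKM in the controls and 6.75, 6.79 and 9.23 FPKM with JOA, and the groups overlapped because control 3 lay above 2 of the JOA libraries. The pair changes were 21.9%, 24.5% and 20.4%, and the log2 difference was 0.25 (SE 0.15 unpaired and 0.05 paired, limma adjusted p = 0.460 unpaired and 0.0406 paired). Unpaired, it was 0.12 without the JOA library numbered 3 and 0.39 without the control numbered 3. BAG3 rested on 262 to 421 reads per library, and the counting error of a pair's ratio was 7.24% to 8.36% (1 SD, counting error only). The same error was 0.652% to 0.690% for HSP90AB1 and 2.81% to 2.94% for STIP1. For BAG3 the pair changes lay closer together than the counting error of 1 pair, so its paired SE and p may be too small.

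A direction shared by all 3 pairs was common in Kasumi-1. JOA was lower in all 3 pairs for 5 of the 8 genes (HSP90AA1, HSP90AB1, HSPA8, HSPH1 and STIP1), against 2148 of all genes tested (17.8%), and higher in all 3 pairs for 1 of 8 against 4359 (36.0%). At an unadjusted p under 0.05 in the unpaired fit, 2 of the 8 passed, HSP90AB1 and STIP1, against 1982 of all genes (16.4%).

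The ratio of BAG3 to HSPA8, a cochaperone against its HSP70 partner, does not change when a whole library is multiplied by 1 factor. It was chosen after the values were seen, from a gene above its controls and a gene below them in every pair, so it is given as a description with no test. It was 0.0149, 0.0132 and 0.0162 in the controls and 0.0208, 0.0183 and 0.0220 with JOA, so the groups did not overlap. The summed level of the 8 genes was 1859.7, 1913 and 2009 FPKM in the controls and 1627, 1653 and 1702 FPKM with JOA, a change of -13.8% with no overlap (exact permutation test, two-sided p = 0.1, the smallest that 3 against 3 can give). HSP90AB1 alone held a mean of 994 of 1927 FPKM in the controls and 812 of 1660.5 FPKM with JOA. The sum therefore follows that gene more than the set.

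HSPE1 stood far below the rest of the set in Kasumi-1, at 3.13, 3.53 and 3.86 FPKM in the controls and 3.38, 2.86 and 2.89 FPKM with JOA, from 95 to 126 reads per library. Its groups overlapped and neither fit called it (limma adjusted p = 0.475 unpaired and 0.326 paired). In NB4 the same gene ranked above STIP1. The Kasumi-1 rows were matched to genes by sequence record with the version ignored. Whether a row holds the whole signal of its gene was not tested, for HSPE1 or any other member. The order of levels and the ratios in Kasumi-1 carry the same limit.

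Without the pair numbered 1, 2 or 3, the paired fit called 0 of the 8 genes and 0 of all genes. Counts of calls in these fits therefore cannot show whether a member depends on 1 pair. The log2 differences without pair 1, 2 and 3 were -0.31, -0.33 and -0.24 for HSP90AB1. They were -0.18, -0.21 and -0.21 for STIP1 and 0.26, 0.24 and 0.26 for BAG3. With the libraries rescaled by median ratios, the paired fit called 4 members lower, HSP90AB1, HSPA8, HSPH1 and STIP1, where 3.73% of all genes were called lower. BAG3 then missed the threshold (limma adjusted p = 0.0541), and with quantile scaling only HSP90AB1 was called. Over all genes 74.7% of the paired calls were higher with JOA as deposited, against 52.2% under median-ratio scaling and 61.1% under quantile scaling. Libraries numbered 3 were also the highest of their group for 7 of the 8 members among the controls and 6 of 8 with JOA, against 35.4% and 43.7% of all genes.

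In NB4 the set was abundant and no member was called. HSPA8 was higher with JOA in both libraries, HSPE1 was lower in both, and the other 7 genes overlapped between the groups. The fit called 0 of the 9 members and 1 of all 12932 genes tested (0.00773%). A fit that shares the spread of all 10 libraries, on the genes found in both tables, called 0 of its 8 members and 156 of 7261 genes (2.15%). The median log2 difference of the 9 members was -0.06, with 7 of 9 negative. That of all genes tested was 0.08, with 33.8% negative. The direction of the set depended on single libraries. Without the control numbered 2 the median of the members was 0.10 with 2 negative, and without the control numbered 1 it was -0.23 with 8 negative. Without the JOA library numbered 1 it was 0.00 with 4 negative, and without the JOA library numbered 2 it was -0.14 with 7 negative. Mitochondrially encoded transcripts held 14.6% and 16.42% of the TPM in the controls and 11.2% and 13.14% with JOA, which enters every other level through the fixed total; without them the log2 difference was 0.17 for HSPA8 and -0.45 for HSPE1. MPO and CEBPA were lower with JOA in NB4 without overlap, and CD33, ANPEP, RARA and CD3D were higher without overlap. SPI1 and PML overlapped between the groups. Of all genes tested, 11.0% were lower and 32.5% higher without overlap. The part of these markers in the NB4 results was not tested.

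**Figure D2:**
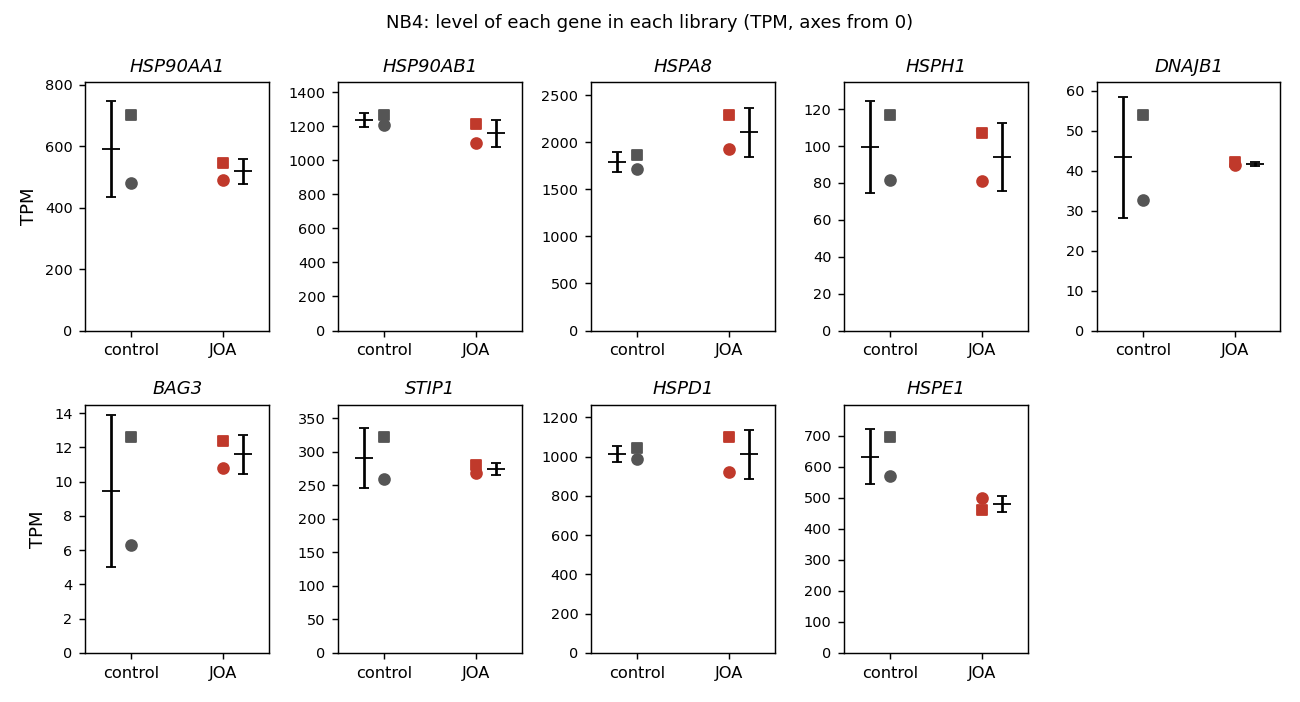
Levels in TPM (vertical axes, each from 0) of the 9 genes found in NB4, in control (grey) and JOA (red) libraries. Circles and squares are replicate numbers 1 and 2, and black marks give the mean with 1 SD (n = 2). Both JOA libraries lie above both controls for HSPA8 and below them for HSPE1, and for each gene the control numbered 2 is the higher of the controls.

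HSPA8 was the most abundant of the set in NB4 when all its transcripts were summed, at 1717 and 1869 TPM in the controls and 1925 and 2293 TPM with JOA. Both JOA libraries lay above both controls, which was so for 4203 of all genes tested (32.5%). The mean went from 1793 ± 107 to 2109 ± 260.2 TPM (SD, n = 2), a log2 difference of 0.23 (SE 0.12, limma adjusted p = 0.547). HSPH1 had 81.8 and 117 TPM in the controls and 81.2 and 107 TPM with JOA, values that differed more within a group than between groups.

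HSP90AB1 ranked next, at 1207 and 1267 TPM in the controls and 1102 and 1213 TPM with JOA, a log2 difference of -0.10 (SE 0.10, limma adjusted p = 0.764). HSP90AA1 had 481 and 702 TPM in the controls and 489 and 546 TPM with JOA, so that a single control library, the second, lay above the rest (log2 -0.17, SE 0.17, limma adjusted p = 0.745). Their ratio was 2.51 and 1.80 in the controls and 2.25 and 2.22 with JOA (exact permutation test, two-sided p = 1.00, where 2 against 2 allows no p below 0.333).

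The partners of the mitochondrial chaperonin gave different values. HSPE1, which encodes the HSP10 lid of the complex, stood at 569.9 and 695 TPM in the controls and 498 and 461 TPM with JOA, with no overlap, as for 1427 of all genes whose JOA libraries lay below their controls (11.0%). Its mean went from 632 ± 88.2 to 479.7 ± 26.4 TPM (SD, n = 2), a log2 difference of -0.39 (SE 0.12, limma adjusted p = 0.339, and 0.0975 with the spread shared over the lines). HSPE1 was the 1 member of 9 at an unadjusted p under 0.05, against 1375 of all genes (10.6%). HSPD1, which encodes the HSP60 barrel, overlapped between the groups, at 987 and 1044 TPM in the controls and 924 and 1100.0 TPM with JOA (limma adjusted p = 0.984). The spans of HSPD1 and HSPE1 overlap on opposite strands of chromosome 2 (197486581 to 197516737 and 197499994 to 197503457, GRCh38), and whether reads were assigned by strand is not given in the sources used here.

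The cochaperones in NB4 differed within groups as much as between them. BAG3 had 6.30 and 12.6 TPM in the controls and 10.8 and 12.4 TPM with JOA, a log2 difference of 0.33 that became -0.12 without the control numbered 1 and 0.78 without the control numbered 2. DNAJB1 had 32.6 and 54.0 TPM in the controls and 41.3 and 42.1 TPM with JOA, so both treated libraries lay between the controls. STIP1 had 259 and 322 TPM in the controls and 268 and 281 TPM with JOA, again between the controls. The BAG3 to HSPA8 ratio was 0.00367 and 0.00675 in the controls and 0.00562 and 0.00540 with JOA, both between the controls.

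The summed level of the 9 genes was 5341 and 6083 TPM in the controls and 5338 and 6056 TPM with JOA, or 0.534% to 0.608% of all TPM (change -0.259%, exact permutation test, two-sided p = 0.667, smallest possible 0.333). The libraries numbered 2 carried the higher sums in both groups. The control numbered 2 was above the control numbered 1 for 9 of 9 members, against 38.2% of all genes tested, and the JOA library numbered 2 was the higher for 8 of 9, against 50.5%. NB4 replicate numbers did not pair the libraries over all genes, and the part of this library difference in each member's result was not tested.

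The NB4 table lists transcripts, and 85 of them belong to the 9 genes. Of these, 63 were tested and 0 were called by limma, as were 0 of all 49382 transcripts (0%). At an unadjusted p under 0.05, 4 of the 63 were higher and 2 lower, against 3296 of all transcripts (6.67%). HSP90AB1, DNAJB1, STIP1 and HSP90AA1 each rested on 1 coding transcript with 91.3% or more of the gene's TPM in every library.

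The other genes were shared out among several transcripts. In HSPA8 a short processed transcript of 465 bases with no coding frame, HSPA8-220, held 34.1% and 31.0% of the gene's TPM in the controls and 33.8% and 36.7% with JOA. With coding transcripts alone, HSPA8 stood at 1054 and 1215 TPM in the controls and 1191 and 1390.4 TPM with JOA, so the JOA library numbered 1 then fell between the controls. In HSPH1 a transcript annotated for nonsense-mediated decay, HSPH1-206, held 34.6% to 45.0% of the TPM. In HSPD1 retained-intron transcripts held 19.4% to 22.5%.

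HSPE1 was lower with JOA in both of the transcripts that carry it. HSPE1-202 had 354 and 427 TPM in the controls and 308 and 273 TPM with JOA (log2 -0.42, limma adjusted p = 0.739). HSPE1-201, the transcript whose exon holds the heat shock elements shown for HSPD1, had 200.4 and 255 TPM in the controls and 175 and 177 TPM with JOA (log2 -0.36, limma adjusted p = 0.745). Their shares of the gene stayed close, with HSPE1-202 at 62.1% and 61.5% in the controls and 61.9% and 59.1% with JOA.

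**Figure D3:**
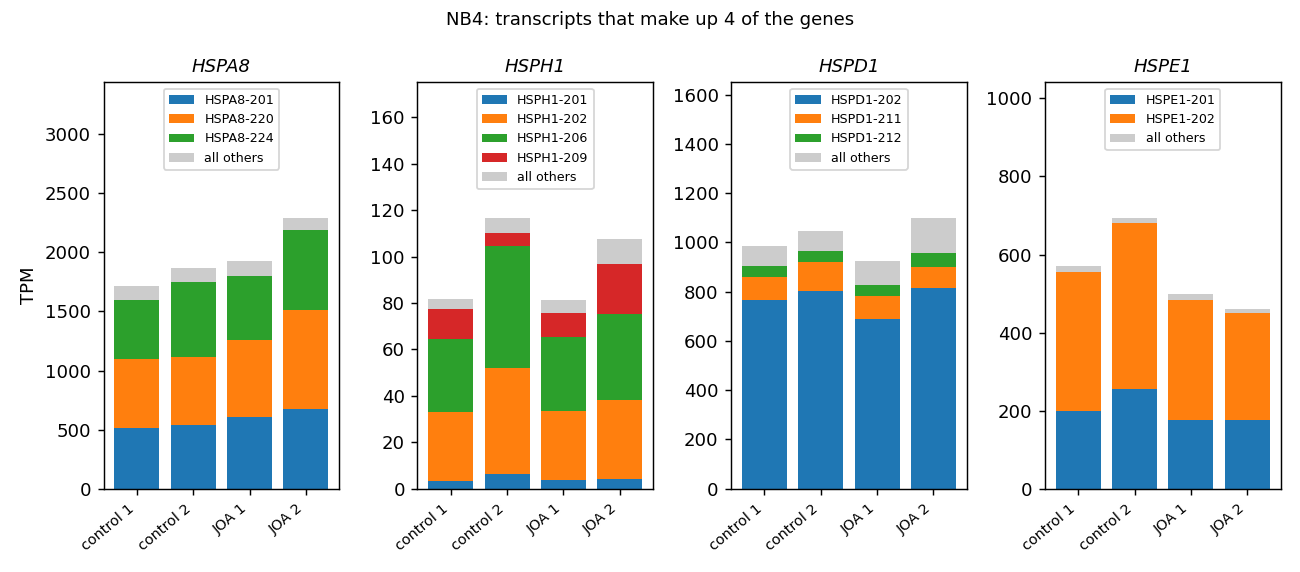
TPM (vertical axes, from 0) of the transcripts that make up HSPA8, HSPH1, HSPD1 and HSPE1 in each NB4 library; colours are transcripts with 5% or more of the gene in at least 1 library and grey is the sum of all others. HSPE1-201 and HSPE1-202 are both lower in the JOA libraries, while HSPA8-220 is highest in the JOA library numbered 2 at 842 TPM.

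The responses of the lines were compared in 1 fit of all 10 libraries, as the log2 difference in Kasumi-1 less that in NB4. None of the 8 members found in both tables was called, against 14 of 7261 genes (0.193%). At an unadjusted p under 0.05, 1 of the 8 passed, against 847 of all genes (11.7%). That gene was HSPA8, at -0.17 in Kasumi-1 and 0.23 in NB4 (difference -0.40, SE 0.18, limma adjusted p = 0.427, and 0.0821 with the replicate block). HSPE1, called in neither line, was at -0.15 in Kasumi-1 and -0.39 in NB4, a difference of 0.24 (SE 0.15, limma adjusted p = 0.559). HSP90AB1 differed by -0.20 (SE 0.12, limma adjusted p = 0.552), and the other 5 members by -0.12 to 0.06. BAG3 had a positive log2 difference in both lines, 0.25 and 0.33, with a difference of -0.08 (SE 0.33). Its NB4 value was -0.12 without the control numbered 1 and 0.78 without the control numbered 2.

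**Figure D4:**
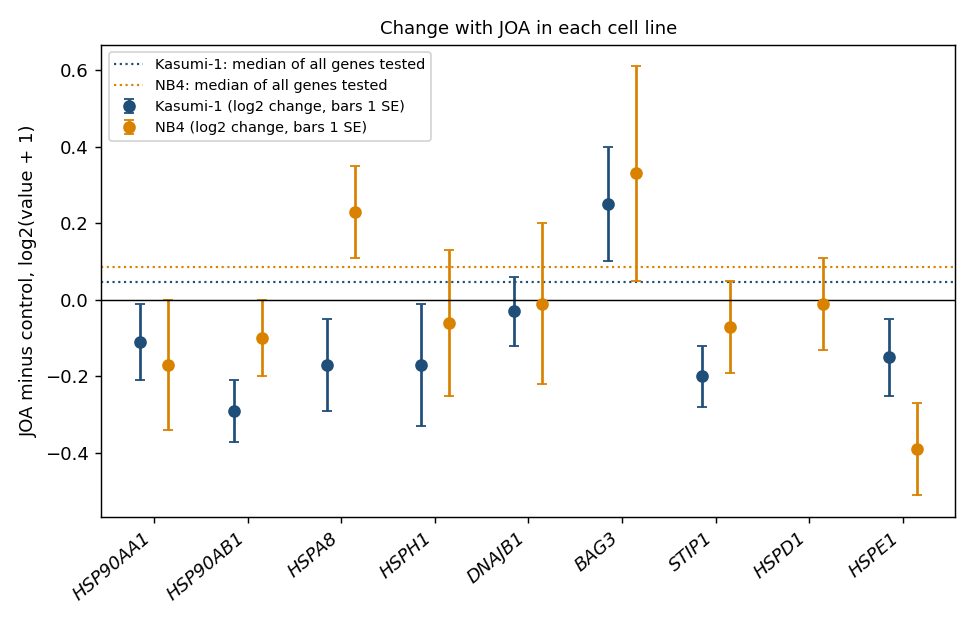
Log2 difference of JOA minus control on the log2(value + 1) scale (vertical axis) of each gene in Kasumi-1 (blue, 3 against 3 libraries) and NB4 (orange, 2 against 2), with bars of 1 SE from the unpaired limma fits; dotted lines are the medians of all genes tested. HSPA8 lies at -0.17 in Kasumi-1 and 0.23 in NB4. BAG3 lies above 0 in both lines, though in NB4 not when the control numbered 1 is left out.

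The wider chaperone network was described with 76 further genes in groups by role, of which 44 were tested in Kasumi-1 and 68 in NB4. In Kasumi-1 their median log2 difference was -0.10, with 34 of 44 negative, against 38.1% of all genes. The paired fit called 0 higher and 8 lower, against the 6.08% and 2.06% of all genes given above, and the unpaired fit called none. Under median-ratio scaling the paired fit called 13 lower, against 3.73% of all genes, and under quantile scaling 0. Without any 1 pair the paired fit called 0, as it did of all genes. In NB4 the median was -0.05, with 44 of 68 negative, against 33.8% of all genes. Without the control numbered 2 that median was -0.00, with 34 of 68 negative. Without any other 1 library it lay between -0.10 and -0.02, with 37 to 49 negative. There the unpaired fit of NB4 alone called none, and the fit that shares the spread called 3 of 45, BAG1, CALR and SDF2L1, lower, against the 2.15% of all genes called in that fit.

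TRiC, a cytosolic chaperonin, folds actin and tubulin. In Kasumi-1 all 7 subunits tested were negative (median -0.17, and 7 of 7 under each other scaling), against 38.1% of all genes. The paired fit called 4 of the 7, CCT3, CCT5, CCT6A and TCP1, lower, against 2.06% of all genes, and called 0 of them under quantile scaling. CCT3, for example, had 124, 123 and 120.5 FPKM in the controls and 107, 111 and 102 FPKM with JOA (log2 -0.20, SE 0.05, limma adjusted p = 0.170 unpaired and 0.0418 paired). In NB4 the median of the 8 subunits was -0.03, with 5 negative and 0 called (7 negative under median-ratio and 4 under quantile scaling). Without the control numbered 2 only 1 of the 8 was negative, and without any other 1 library 4 to 7 were. CCT3 had 263 and 302 TPM in the NB4 controls and 268 and 276 TPM with JOA.

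Chaperones of the endoplasmic reticulum, which answer to a separate unfolded protein response, had negative log2 differences in 7 of 7 genes in Kasumi-1 (median -0.23) and 11 of 11 in NB4 (median -0.37), counts that held under each scaling, against 38.1% and 33.8% of all genes. HSPA5, the HSP70 of that compartment, had 265, 276 and 317 FPKM in the Kasumi-1 controls and 230.3, 218 and 236 FPKM with JOA (log2 -0.32, limma adjusted p = 0.157 unpaired and 0.0363 paired). In NB4 it had 123 and 231 TPM in the controls and 103 and 104 TPM with JOA (log2 -0.70, limma adjusted p = 0.401). CALR, a chaperone of glycoproteins, went from 1947 and 2398 TPM to 1376 and 1197 TPM in NB4 (log2 -0.75, limma adjusted p = 0.170, and 0.0164 with the shared spread). In Kasumi-1 the paired fit called CALR and PDIA6, a disulfide isomerase, lower as well. HSPA9, the mitochondrial HSP70, was the 1 mitochondrial chaperone called in Kasumi-1, at 120.2, 129.6 and 119.8 FPKM against 109, 111 and 97.9 FPKM (limma adjusted p = 0.206 unpaired and 0.0441 paired).

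Other partners of HSP70 were mixed. DNAJB4, a close relative of DNAJB1, was above its controls without overlap in both lines, as were 16.0% of all genes tested in Kasumi-1 and 32.5% in NB4. It had 4.03, 4.26 and 4.72 FPKM against 5.07, 5.13 and 6.92 FPKM in Kasumi-1 (limma adjusted p = 0.257 unpaired and 0.0513 paired) and 8.90 and 8.61 TPM against 12.0 and 12.6 TPM in NB4 (limma adjusted p = 0.400). BAG1, an exchange factor like BAG3, had 236 and 233 TPM in the NB4 controls and 187 and 189 TPM with JOA, a log2 difference of -0.32 (limma adjusted p = 0.316, and 0.0420 with the shared spread). In Kasumi-1 BAG1 stayed at 17.8 to 19.0 FPKM in all 6 libraries. The heat shock factor HSF1 stood at 72.8 and 74.0 TPM in the NB4 controls and 72.1 and 72.2 TPM with JOA. HSPA1B, the near-identical neighbour of HSPA1A, was listed at 0 TPM in 3 of the 4 NB4 libraries and at 0.196 TPM in the JOA library numbered 1. How reads shared by these copies were counted is not given, so the values do not show that inducible HSP70 was silent. The small heat shock protein HSPB1 had 172 and 175 TPM in the NB4 controls and 172 and 105 TPM with JOA (limma adjusted p = 0.565).

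**Figure D5:**
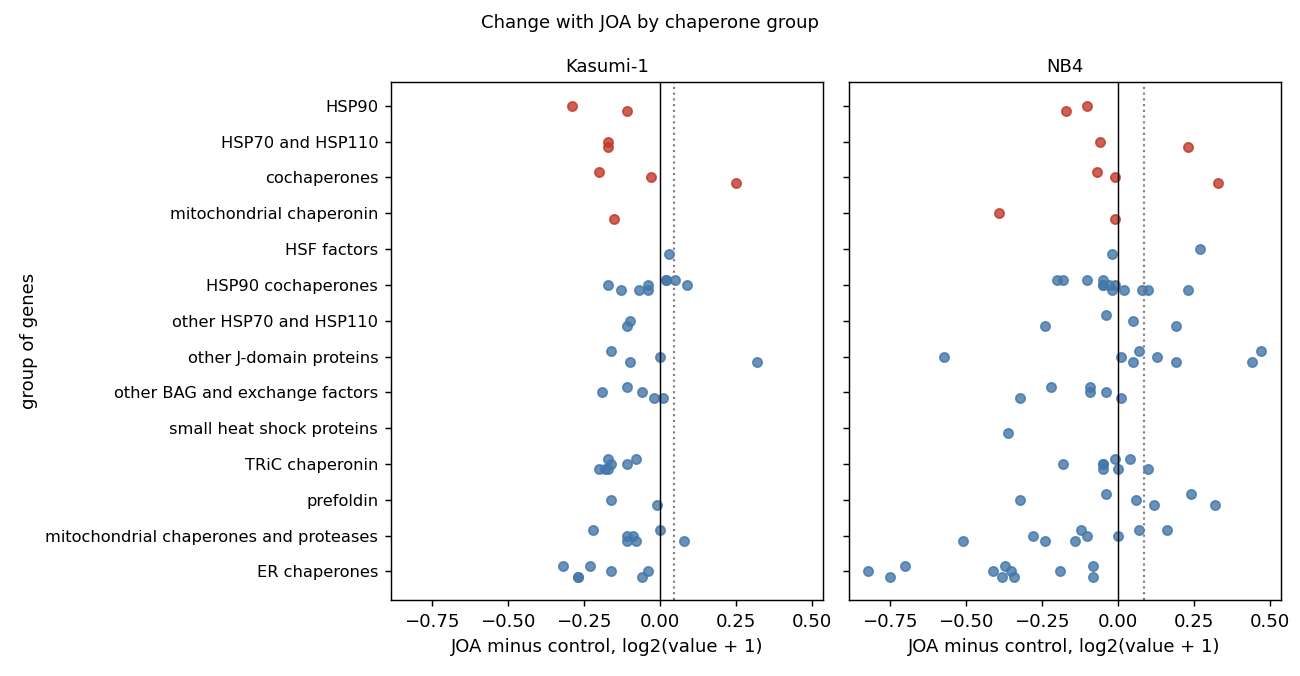
Log2 difference of JOA minus control on the log2(value + 1) scale (horizontal axis) for each gene tested, by role (rows), in Kasumi-1 (left) and NB4 (right); red points are the set itself, blue points are the wider network, and the dotted line is the median of all genes tested. TRiC subunits lie below 0 in 7 of 7 genes in Kasumi-1 and in 5 of 8 in NB4, and chaperones of the endoplasmic reticulum lie below 0 in both lines.

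The order of levels within each line, over the control means, was HSP90AB1, HSPA8, HSP90AA1, STIP1, DNAJB1, HSPH1, BAG3 and HSPE1 in Kasumi-1, and HSPA8, HSP90AB1, HSPD1, HSPE1, HSP90AA1, STIP1, HSPH1, DNAJB1 and BAG3 in NB4. With coding transcripts alone, HSP90AB1 (1237 ± 42.8 TPM, SD, n = 2) lay above HSPA8 (1134 ± 114 TPM) in NB4. In Kasumi-1 the means of HSPA8 (419 ± 50.8 FPKM) and HSP90AA1 (383 ± 22.8 FPKM) lay within the SD of HSPA8 but not that of HSP90AA1. HSPA8 was the higher of these genes in each Kasumi-1 control. In NB4 HSPE1 (632 ± 88.2 TPM) and HSP90AA1 (592 ± 157 TPM) lay within 1 SD of each other. BAG3 was the lowest of the set in NB4, at 9.46 ± 4.47 TPM (SD, n = 2). HSP90AB1, HSPA8, HSPD1 and HSPE1 have processed pseudogene copies of near-identical sequence, and how reads shared with such copies were counted is not given in the sources used here.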

How the data were processed

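RNA-seq libraries from Trizol RNA and a stranded TruSeq mRNA kit, per the labels' protocols, came as 1 table per line. Tools listed in the submitters' processing notes are HTSeq, Cufflinks, HISAT2 and Trimmomatic, with hg38 as the build, without versions or roles. The Kasumi-1 FPKM values were deposited by record (29053 rows, 37.5% with a symbol, 45.8% of the FPKM), matched through RefSeq with the record version ignored. The deposited NB4 values are named FPKM, but each column sums to between 999679 and 999758, so they were read as TPM and summed over GENCODE v29 genes (93.9% of 121005 transcripts matched, 3.06% of the TPM unmatched); the planned design had assumed FPKM, and the test was kept. Kasumi-1 reads were recovered as the smallest whole numbers in the ratios of the FPKM values and used only for counting error.

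limma 3.58.1 (R 4.3.3, Python 3.11.15) was fitted with a variance trend to log2(value + 1) of genes that reached 1 in as many libraries as the smaller group holds. A check on simulated data used larger changes than those of the members and noise without pairs. It therefore says nothing of how well such small changes or the paired fit are called. Members and lists were chosen with earlier results of these data known. Named genes were the 10 members, HSF1, HSPA1B, HSPB1 and HSPA5, network genes called in any of the fits, the 2 lowest p-values per role and line, and transcripts with 5% or more of a member, of which the text gives those its results turn on. Same-numbered Kasumi-1 libraries correlated at 0.33, 0.5 and 0.424 in their deviations from the group means. No other combination exceeded -0.061, but such deviations sum to 0 within a group, so positive same-numbered values push the others below 0. The numbers were treated as pairs, and the pairing comes from the values, not from a label. Alternatives were pseudocount, filter, scaling, block, transcripts used, and leaving out each library.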

Additional observations from a re-analysis of the deposited data

How the results depend on the processing

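The number of members called in Kasumi-1 was 0 unpaired under every other pseudocount, filter and scaling tried and without any 1 library, 3 with the replicate block, 4 with the block and median-ratio scaling and 1 with the block and quantile scaling; the last 2 and the fits without a pair were added after seeing the data. In NB4 the block, whose numbers share only a number (r = 0.066), moved the calls over all genes from 1 to 99 higher and 58 lower and called 0 members and, of the network, CALR (limma adjusted p = 0.00463), and 0 members were called under every other alternative run there, for the difference between lines, or among transcripts. The block changed no other member's call. HSP90AA1 in Kasumi-1 had a log2 difference of 0.02 under quantile scaling with and without the block. DNAJB1 in Kasumi-1 ranged from -0.11 to 0.04 without 1 library and was 0.02 with the block without pair 1. In NB4, leaving out 1 library gave log2 ranges of -0.44 to 0.10 for HSP90AA1, -0.32 to 0.19 for HSPH1 (0.00 with coding transcripts only), -0.37 to 0.35 for DNAJB1, -0.12 to 0.78 for BAG3, -0.23 to 0.08 for STIP1 and -0.14 to 0.12 for HSPD1. The same gave -0.16 to 0.31 for the log2 HSP90AB1 to HSP90AA1 ratio, -0.29 to 0.59 for the log2 BAG3 to HSPA8 ratio and -6.54% to 6.67% for the summed level (-6.85% with median-ratio scaling). The cause was not tested. HSPA8 and HSPE1 in NB4 kept their directions in every alternative run, with ranges without 1 library of 0.10 to 0.36 and -0.53 to -0.25. In Kasumi-1 the same ranges were -0.27 to -0.08 for HSPA8 and -0.33 to -0.05 for HSPH1. Median-ratio scaling moved the median of all genes from 0.047 to 0.008 in Kasumi-1 and from 0.085 to 0 in NB4 (log2). Depth limits BAG3 and HSPE1 most in Kasumi-1, and NB4 has 2 libraries a group.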
